A study of Mus musculus with 8 samples.

Results

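The Wnt pathway genes that act outside the cell or at its surface were followed in mouse colon with and without human SIGLEC12. The 52 genes were chosen by name only: all Wnt ligands, Frizzled receptors, R-spondins, Sfrp and Dkk inhibitors in the deposited values, together with Lrp5, Lrp6, Wif1, Frzb, Porcn, Wls, Lgr4, Lgr6, Ror1, Ror2 and Ryk. They are 52 of the 51425 gene symbols measured. In control colon 22 of them had a mean of at least 1 TPM (a gene's share of the transcripts in a sample after correction for length, scaled to 1000000 per sample), and the remaining 30 had means of at most 0.909.

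The data were 4 Control and 4 SiglecXII samples of mouse colon, each separate in the labels. The methods place the tissue in the distal colon. Both groups carried Villin1-Cre-ERT, a Cre recombinase that the Villin1 promoter drives in intestinal epithelium and that tamoxifen activates. SiglecXII mice (SIGLEC12-Villin1-Cre-ERT) carried in addition a human SIGLEC12 knock-in at the ROSA26 locus, silent until Cre removes an EGFP stop cassette between the CAG promoter and SIGLEC12. Controls and SiglecXII mice were both treated with tamoxifen (10 mg/ml) for 5 days, and colons were collected 7 days after the last dose. The methods describe the tamoxifen scheme for 8-week-old females and name the controls littermates. SIGLEC12, EGFP and Cre have no value among the deposited genes, so the transgene gave no check of the groups. The labels list 4 samples per group, more than the 3 mice per condition of the accompanying description, and the methods speak of technical replicate libraries made from each sample. Which samples come from separate mice is therefore not known. If any share a mouse, the P values below rest in part or fully on technical spread and not on spread between mice.

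Wnt ligands are lipid-modified by Porcn, escorted to the cell surface by Wls and bound by Frizzled receptors with Lrp5 or Lrp6, which stabilises β-catenin and switches on TCF/LEF target genes. R-spondins, bound by Lgr receptors, raise the number of Frizzled and Lrp proteins on the cell, whereas Sfrp, Wif1 and Dkk proteins are secreted modulators that mostly oppose the pathway. Ror1, Ror2 and Ryk are receptors best known for Wnt signals that do not run through β-catenin. In the colon this pathway maintains the stem cells of the crypt base, with much of the ligand and R-spondin supplied by mesenchymal cells beneath the epithelium.

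The samples were dominated by epithelium. Epcam, an epithelial surface protein, lay between 1216 and 1614 TPM in the 8 samples. Mesenchymal RNA was present: of 10 fibroblast markers 6 had a control mean of at least 1 TPM, the highest being Dcn with 14.0 TPM, Col3a1 with 9.71 and Dpt with 6.65, whereas Pdgfra was at most 0.505 TPM. Of 8 telocyte and trophocyte markers 3 did so, Cd81, which many cell types express, Grem1 with 1.82 TPM and Foxf1 with 1.12, whereas Foxl1 was at most 0.163 TPM. The 6 leukocyte markers had control means below 1 TPM. Of 3 plasma cell markers 2 were above it, Igha with a mean of 13.1 TPM in the controls and 1.07 in SiglecXII, and Jchain with 4.79 and 1.01. Igha varied among the controls, at 29.7, 0.640, 9.38 and 12.7 TPM. Smooth muscle was present, with Myh11 between 13.2 and 51.2 TPM, and all 10 smooth muscle markers had a lower mean in SiglecXII (4 of 10 at an unadjusted P of at most 0.05 in limma), beside 78.1% of all genes tested with a lower mean and 7.67% lower at that P. SiglecXII 3 and SiglecXII 4 stood apart from the other 6 samples on the first principal component of all genes tested, and the median log2 value of the genes tested was 3.46 and 3.31 in these samples against 3.66 to 3.87 in the others. Control 1, Control 4 and SiglecXII 2 were high in most of the keratins listed for stratified epithelium, the layered lining of skin and anus. Krt14 was at 5674, 3252 and 1652 TPM in them and between 119.9 and 275.6 in the other 5. Krt17 and Krt15 did not follow this order. In Control 1 Krt17 was at 5.47 TPM, the lowest of the 8 samples, and Krt15 at 31.4 TPM against 55.6 in Control 2. Mesothelial markers were high only in SiglecXII 4, where Msln reached 12.4 TPM against at most 1.45 in the other samples. Results that move with these samples are given below beside those facts.

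In control colon the highest members were receptors and the secretion factor Wls. Lgr4 was the highest of the 52 genes with 83.7 ± 18.1 TPM (SD, n = 4). Wls followed with 71.7 ± 5.08 TPM, Ryk with 39.9 ± 2.73, Lrp5 with 24.8 ± 4.48, Lrp6 with 24.1 ± 5.85, Fzd5 with 20.5 ± 6.17 and Fzd1 with 12.5 ± 1.77 TPM (each SD, n = 4). These 7 genes were the only ones with a control mean of at least 10 TPM, and none of them is a ligand or an inhibitor. Another 15 lay between 1 and 10 TPM, 19 between 0.1 and 1, and 11 below 0.1, of which Wnt1 was listed at 0 in all 8 samples. The order is coarse: along the 22 expressed genes, 19 of the 21 pairs of neighbours had overlapping ranges in the 4 controls, and only the steps from Wls to Ryk and from Ryk to Lrp5 did not.

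**Figure D1:**
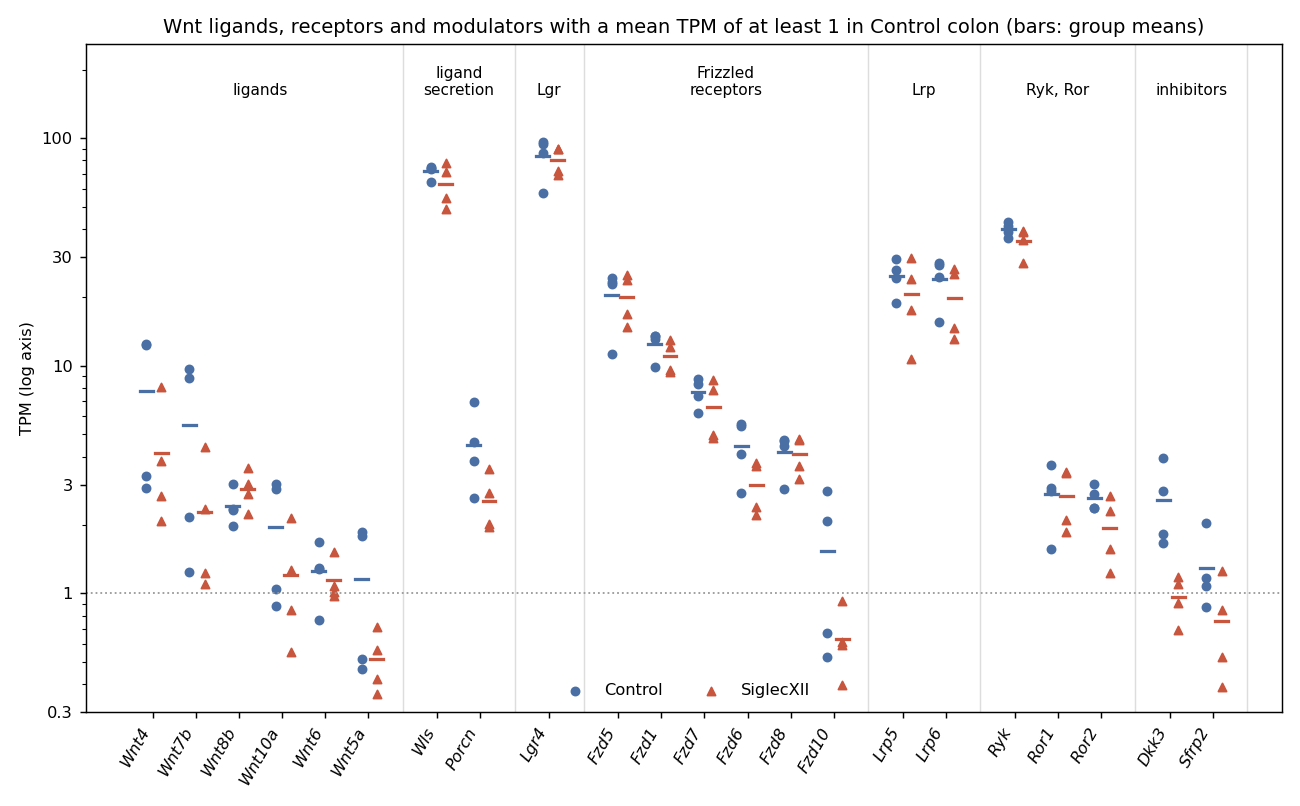
TPM (log axis) of the 22 members with a control mean of at least 1 TPM, grouped by role, in the 4 Control samples (circles) and the 4 SiglecXII samples (triangles), with bars at the group means. Lgr4, Wls and Ryk are highest, Wnt4, Wnt7b, Wnt10a, Wnt5a and Fzd10 split the controls into a high and a low pair, and Dkk3 is the one gene of the 22 in which the groups do not overlap.

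Of 19 ligands, 6 were expressed in control colon: Wnt4, Wnt7b, Wnt8b, Wnt10a, Wnt6 and Wnt5a. Wnt4, a ligand best known from kidney and female reproductive tract development, was the highest with 12.5, 3.28, 2.90 and 12.4 TPM in controls 1 to 4 and 3.80, 8.06, 2.07 and 2.69 TPM in SiglecXII samples 1 to 4. Wnt7b, an epithelial ligand of lung, skin and kidney, was at 8.84, 2.17, 1.24 and 9.67 TPM in the controls and at 2.35, 4.40, 1.10 and 1.23 TPM in the SiglecXII samples. Wnt4 lies at chr4:137277489-137299726 and Wnt7b at chr15:85535437-85582473 (GRCm38), where exons of Wnt7b overlap those of the antisense gene AU022754. In both genes Control 1, Control 4 and SiglecXII 2 were the 3 highest samples, and the groups overlapped. Wnt8b, best known from the developing forebrain, had the smallest SD among the controls of the 6 expressed ligands on the log2(TPM + 1) scale (0.18, against 0.25 for Wnt6). It lay at 1.98, 2.32, 3.04 and 2.35 TPM in the controls and at 3.03, 3.57, 2.23 and 2.74 TPM in the SiglecXII samples. No other annotated gene overlaps Wnt8b, and 0.32% of the 31-base windows of its transcripts occur in another gene. Wnt6 was at 1.25 ± 0.376 TPM (SD, n = 4) in the controls and 1.15 ± 0.256 TPM (SD, n = 4) in SiglecXII. The 13 other ligands had control means of at most 0.472 TPM. Among them were the ligands usually assigned to colonic mesenchyme, Wnt2b with a control mean of 0.130 TPM and Wnt2 with 0.0151. Wnt2b was at 0.156, 0.135, 0.112 and 0.116 TPM in the controls and at 0.0482, 0.0765, 0.111 and 0.0777 TPM in the SiglecXII samples. Every SiglecXII sample of Wnt2b lay below every control, SiglecXII 3 only just, at levels too low to be tested. No share over untested genes was taken, and at these levels the order is not read as a difference.

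The split of the controls was not limited to Wnt4 and Wnt7b. Wnt10a, a ligand of skin, tooth and hair, was at 2.88 and 3.03 TPM in Control 1 and Control 4 and at 1.05 and 0.885 in Control 2 and Control 3, and within SiglecXII it was highest in SiglecXII 2 (2.15 TPM). Wnt5a, a ligand of the β-catenin-independent branch, was at 1.87 and 1.79 TPM in Control 1 and Control 4 and at most 0.710 in the other 6 samples. Fzd10, a Frizzled receptor, was at 2.09 and 2.83 TPM in these controls and at most 0.928 elsewhere. The mean of Control 1 and Control 4 was 4.02 times the mean of Control 2 and Control 3 for Wnt4, 5.42 times for Wnt7b, 3.06 times for Wnt10a, 3.73 times for Wnt5a and 4.12 times for Fzd10. Among the 20 members tested, 3 (Wnt4, Wnt7b and Wnt10a) had Control 1, Control 4 and SiglecXII 2 as their 3 highest samples, against 3.52% of all genes tested. Of the members too low for testing, Fzd10, Wnt5a, Wnt3a and Rspo2 had the same order, and no share over untested genes was taken. Rspo2 was at most 0.0704 TPM, too low for its order to be read. Control 1, Control 4 and SiglecXII 2 were also the 3 highest samples in 12 of 15 markers of stratified epithelium, all but Krt15, Krt17 and Ivl. The summed level of the 15 markers was 25650, 13570 and 6530 TPM in these samples and 981.5 to 2236 TPM in the other 5. These markers were listed after the split had been seen. Whether RNA from stratified epithelium gave the extra Wnt4, Wnt7b, Wnt10a, Wnt5a and Fzd10 was not tested. In bulk tissue more cells of a type and more RNA per cell cannot be told apart.

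The split set how much ligand RNA a sample held. The summed TPM of the 19 ligands was 31.4 and 35.2 in Control 1 and Control 4, 11.9 and 11.1 in Control 2 and Control 3, and 13.6, 21.8, 8.49 and 10.6 in SiglecXII samples 1 to 4. Wnt4, Wnt7b and Wnt10a together made up 77.1% and 71.3% of it in Control 1 and Control 4, 67.1% in SiglecXII 2 and between 43.9% and 54.7% in the other 5 samples. The highest receptors did not follow this split: Control 1 was the lowest control in Lgr4, Lrp5, Lrp6 and Fzd5, as in the plot of members by sample.

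**Figure D2:**
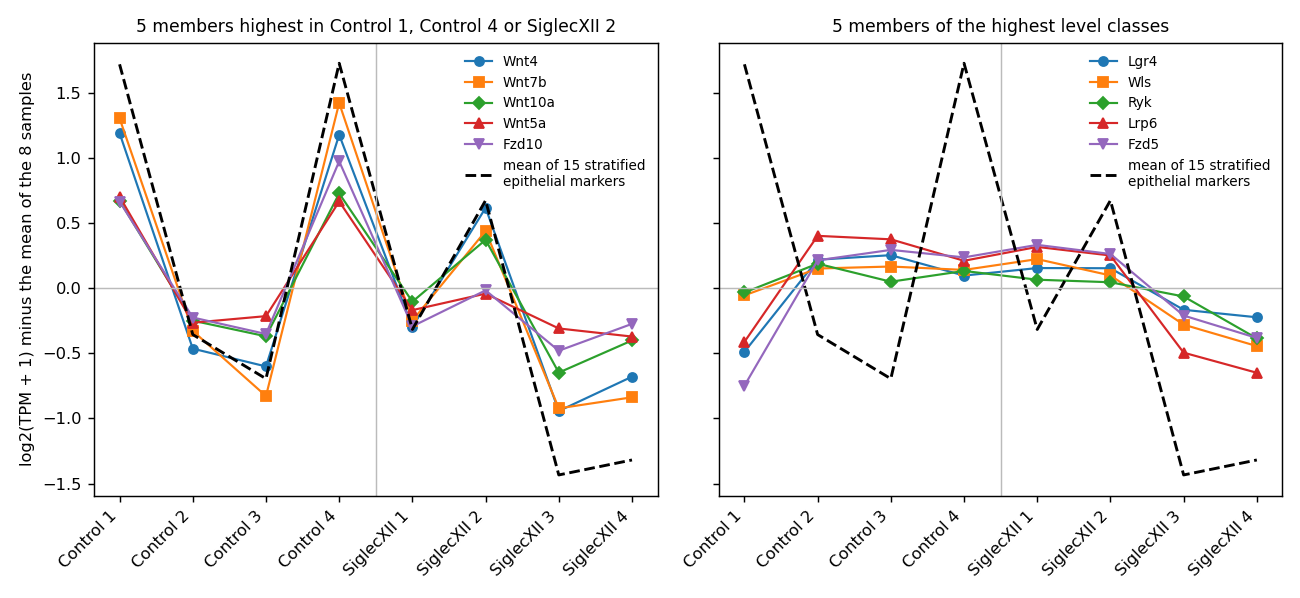
Each line is one member in the 8 samples, as log2(TPM + 1) minus its mean over the 8 samples, and the dashed line is the mean of 15 markers of stratified epithelium. On the left Wnt4, Wnt7b, Wnt10a, Wnt5a and Fzd10 peak in Control 1 and Control 4, with Wnt4, Wnt7b and Wnt10a up again in SiglecXII 2, and on the right Lgr4, Wls, Ryk, Lrp6 and Fzd5 stay flat or dip in Control 1 and in SiglecXII 3 and 4.

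The promoters of a ligand with the split and of the 2 highest members are given to set them side by side: Wnt4 at chr4:137277385-137277684, Lgr4 at chr2:109917397-109917696 and Wls at chr3:159839400-159839699, all on the plus strand of GRCm38.p6. The sequences are from RefSeq and run across the start that RefSeq gives the gene, 5′ to 3′, with GC boxes (GGGCGG on either strand) in capitals.
Wnt4: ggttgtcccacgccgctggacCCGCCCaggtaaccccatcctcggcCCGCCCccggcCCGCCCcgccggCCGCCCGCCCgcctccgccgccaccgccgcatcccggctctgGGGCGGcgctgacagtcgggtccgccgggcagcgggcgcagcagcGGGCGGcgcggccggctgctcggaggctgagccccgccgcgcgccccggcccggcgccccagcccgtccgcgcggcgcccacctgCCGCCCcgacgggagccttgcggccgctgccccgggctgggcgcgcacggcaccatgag
Lgr4: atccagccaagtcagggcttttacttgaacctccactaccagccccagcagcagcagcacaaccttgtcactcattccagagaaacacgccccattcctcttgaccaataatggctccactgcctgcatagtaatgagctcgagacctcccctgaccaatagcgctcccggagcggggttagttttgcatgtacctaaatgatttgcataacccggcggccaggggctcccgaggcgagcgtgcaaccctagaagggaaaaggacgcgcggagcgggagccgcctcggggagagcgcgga
Wls: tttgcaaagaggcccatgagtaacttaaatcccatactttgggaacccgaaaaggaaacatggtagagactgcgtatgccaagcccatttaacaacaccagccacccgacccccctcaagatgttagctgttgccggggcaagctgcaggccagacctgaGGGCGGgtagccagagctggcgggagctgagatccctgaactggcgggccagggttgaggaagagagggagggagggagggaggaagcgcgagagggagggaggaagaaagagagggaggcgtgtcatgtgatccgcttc
The Wnt4 window held 8 GC boxes, some of them overlapping, and 51 CpG dinucleotides. The Lgr4 window had no GC box and 18 CpG, and the Wls window 1 GC box and 11 CpG. None of these windows held the TCF/LEF core CTTTGA or a TATAAA on either strand. Over all 32851 promoters of the same length, 35.7% held GGGCGG, 16% CTTTGA and 13.6% TATAAA. Of the 38 promoters listed for 35 of the 52 members, 29 held GGGCGG, 6 CTTTGA and 6 TATAAA, and the median promoter of the members held 25.5 CpG against 7 over all promoters. These counts describe letters in the windows and not bound sites.

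Both ligand processing factors were expressed. Wls, the carrier that takes Wnt proteins to the surface, was at 64.1, 74.2, 75.0 and 73.6 TPM in the controls and at 78.0, 71.4, 54.7 and 48.7 TPM in the SiglecXII samples. Porcn, the acyltransferase that attaches the lipid, was much lower, with 6.97, 3.83, 2.62 and 4.64 TPM in the controls and 2.77, 3.51, 1.95 and 2.01 TPM in the SiglecXII samples. SiglecXII 3 and 4 were the lowest samples in both genes. The groups overlapped in each, as SiglecXII 1 and 2 lay above Control 3 in Porcn and SiglecXII 1 was the highest sample in Wls. Porcn differed by -0.59 ± 0.25 (SE) on the log2(TPM + 1) scale, SiglecXII minus Control, with an unadjusted P of 0.0417 and an adjusted p of 0.515 in limma. The unadjusted P of Porcn was at most 0.05 in 5 of the 18 settings tried, and its adjusted p lay between 0.281 and 0.991.

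The receptor for R-spondin was abundant and R-spondins were not. Lgr4 was at 57.3, 94.2, 96.6 and 86.5 TPM in the controls and at 90.1, 90.0, 72.0 and 69.1 TPM in the SiglecXII samples, so that the lowest and the highest sample were both controls. Its difference was -0.04 ± 0.18 (SE, adjusted p = 0.916, limma), which became 0.17 when each sample was centred on its median gene. Lgr6, a receptor of the same family known from skin stem cells, had a control mean of 0.144 TPM and was highest in Control 4 (0.432 TPM). Rspo3, the main R-spondin of the crypt niche, was at 0.448, 0.213, 0.328 and 0.298 TPM in the controls and at 0.244, 0.217, 0.169 and 0.156 TPM in the SiglecXII samples. Rspo1 had a control mean of 0.244 TPM, Rspo2 of 0.0254 and Rspo4 of 0.009 TPM. The 4 R-spondins summed to between 0.243 and 1.43 TPM. The highest sum was that of SiglecXII 4, from Rspo1 at 1.27 TPM against at most 0.427 TPM in the other samples, and SiglecXII 4 was also the sample with high mesothelial markers, whose 4 genes summed to 20.5 TPM in it and to at most 2.83 TPM in the others. The part of mesothelium in Rspo1 was not tested.

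Of the 10 Frizzled receptors, 6 were expressed in control colon. Fzd5, the Frizzled of the intestinal crypt, was at 11.3, 23.0, 24.4 and 23.4 TPM in the controls and at 25.1, 23.8, 16.9 and 14.9 TPM in the SiglecXII samples. Fzd1 was at 9.91, 13.5, 13.1 and 13.6 TPM in the controls and at 12.1, 13.0, 9.64 and 9.41 TPM in the SiglecXII samples. Fzd7, which has been linked to crypt stem cells, was at 6.22, 8.78, 8.35 and 7.37 TPM in the controls and at 8.66, 7.87, 4.97 and 4.81 TPM in the SiglecXII samples. In Fzd5, Fzd1 and Fzd7 the samples that lay low were Control 1 and SiglecXII 3 and 4, and the other 5 were close together. Fzd8 showed the same low samples with control values of 2.89 to 4.73 TPM and SiglecXII values of 3.19 to 4.78 TPM. Fzd6 went the other way in Control 1, with 5.54, 4.12, 2.76 and 5.46 TPM in the controls and 3.65, 3.74, 2.21 and 2.41 TPM in the SiglecXII samples. Fzd6 was deposited under 2 identifiers with identical values, and summed they gave 8.94 TPM in the controls and 6.0 in SiglecXII. Of the expressed members, Fzd5 shares most sequence with another gene, as 17.2% of its 31-base windows are also in other transcripts, most of them in Gm38058 on the opposite strand. Fzd2, Fzd4, Fzd9 and Fzd3 had control means between 0.15 and 0.909 TPM.

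In the co-receptors Lrp5 and Lrp6 and in Ryk and Ror1 the 3 lowest samples were again Control 1, SiglecXII 3 and SiglecXII 4. Lrp5, a β-catenin pathway co-receptor, was at 18.9, 26.3, 29.6 and 24.3 TPM in the controls and at 29.9, 24.2, 17.6 and 10.8 TPM in the SiglecXII samples. Lrp6, its close relative, was at 15.7, 28.3, 27.8 and 24.7 TPM in the controls and at 26.6, 25.4, 14.7 and 13.1 TPM in the SiglecXII samples. In both genes SiglecXII 4 was the lowest of the 8 samples, SiglecXII 3 came next and Control 1 was the lowest control. Ryk was at 36.6, 42.9, 38.9 and 41.2 TPM in the controls and at 39.3, 38.7, 35.8 and 28.5 TPM in the SiglecXII samples. Ror1, a receptor tyrosine kinase of the Wnt5a branch, was at 1.57, 2.91, 3.68 and 2.83 TPM in the controls and at 3.41, 3.40, 2.11 and 1.85 TPM in the SiglecXII samples. Ror2, its relative, was at 2.37, 2.73, 2.37 and 3.03 TPM in the controls and at 2.68, 2.31, 1.57 and 1.23 TPM in the SiglecXII samples. The groups overlapped in all 5 of these receptors.

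Among 10 secreted inhibitors, Dkk3 and Sfrp2 were expressed in control colon, and Dkk3 was the one member of the 20 tested whose groups did not overlap. Dkk3, a divergent Dickkopf protein encoded at chr7:112116017-112159057 (GRCm38), was at 3.95, 1.82, 1.67 and 2.83 TPM in the controls and at 0.905, 1.10, 0.691 and 1.18 TPM in the SiglecXII samples, so that every SiglecXII sample lay below every control. Such a separation downward was found in 4.06% of all genes tested. The difference of Dkk3 was -0.82 ± 0.21 (SE) on the log2(TPM + 1) scale, a ratio of 0.567, with an unadjusted P of 0.00371 and an adjusted p of 0.515 in limma. The adjusted p ranged from 0.177 to 0.991 over the alternative settings, and the unadjusted P was at most 0.05 in all 18 settings in which Dkk3 was tested. These settings refit the same samples and are not independent of each other. The share of all genes that passed in every setting was not taken. Control 1 and Control 4 were its highest samples, and with the mean of the stratified markers as a covariate the difference was -0.57 with an unadjusted P of 0.0183. After each sample was centred on its median gene it was -0.61, and the groups then overlapped. The 10 smooth muscle markers had a median difference of -0.65, in the same direction, and their summed level was 760.5 to 1225 TPM in the controls and 369.1 to 795.6 TPM in SiglecXII. The other marker lists with tested genes also had medians below 0, as did all genes tested (-0.15). These were -1.67 for plasma cells (2 genes tested), -1.3 for stratified epithelium (15), -0.45 for enteric neurons (4) and -0.34 for telocytes and trophocytes (2). They were -0.33 for endothelium (2), -0.10 for colon epithelium (10), -0.09 for fibroblasts (7) and -0.07 for enteric glia (2). The part of any of these cell types in Dkk3 was not tested. Sfrp2, a soluble Frizzled-like protein made by mesenchyme, was at 0.876, 1.16, 1.08 and 2.04 TPM in the controls and at 0.842, 1.26, 0.525 and 0.388 TPM in the SiglecXII samples, and its groups overlapped. Of its 31-base windows, 13.7% also occur in the antisense gene Gm26771. Sfrp1, a relative of Sfrp2, was at 1.23, 0.563, 0.585 and 1.09 TPM in the controls and at 0.862, 0.642, 0.453 and 0.306 TPM in the SiglecXII samples. Sfrp5, Wif1, Sfrp4 and Frzb had control means between 0.242 and 0.684 TPM, and Dkk1, Dkk2 and Dkk4 at most 0.0650 TPM.

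No member changed between SiglecXII and control colon at an adjusted p of 0.05. The comparison asks whether the expression of human SIGLEC12 in the epithelium, before any carcinogen, was accompanied by a shift in Wnt signalling genes. It was made with limma on the 13164 genes that had at least 1 TPM in at least 4 of the 8 samples, of which 20 are members. Of the 20, 16 had at least 1 TPM in all 8 samples and none passed the filter through samples of 1 group only. Over all genes 5 passed (0.038%), all higher in SiglecXII (Gm13394, Gm45063, Prh1, Gm7336 and Esr1, named here after their values were seen), and the smallest adjusted p of a member was 0.515. At an unadjusted P of 0.05, Dkk3 and Porcn passed, both lower in SiglecXII, and no member was higher. The background for this count is 8.87% of all genes in either direction, 7.67% lower and 1.19% higher, so 2 of 20 lower is a share close to the background. Porcn no longer passed without Control 1, Control 2, Control 4, SiglecXII 3 or SiglecXII 4, which left 1 member (Dkk3), nor without SiglecXII 1, where Dkk3 and Ror2 passed, and without Control 3 the count was 4 (Dkk3, Porcn, Wnt7b and Fzd6).

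Most members had a lower mean in SiglecXII, and so did most genes. The difference was below 0 in 18 of the 20 members and in 78.1% of all genes tested. The median difference was -0.26 for the members and -0.15 for all genes on the deposited scale. After each sample was centred on its median gene these medians became -0.04 and 0.06, and 1 member was then lower (Dkk3) and 1 higher (Wnt8b, by 0.40) at the unadjusted limit, beside 2.16% of all genes lower and 8.64% higher. For this difference of Wnt8b limma gave an unadjusted P of 0.0201 and an adjusted p of 0.459. SiglecXII 3 and SiglecXII 4 were the lowest samples in 13 of the 20 members and in 41.6% of all genes. Without them the differences of Lgr4, Wls, Lrp5, Lrp6, Fzd1, Fzd7, Fzd8 and Ror1 lay between 0.01 and 0.27, above 0. The difference stayed below 0 in 10 of the 20, among them Dkk3 (-0.79), Porcn (-0.36), Wnt7b (-0.30), Fzd6 (-0.19) and Wnt4 (-0.17).

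Among the 20 members tested, the largest differences after Dkk3 on the deposited scale were those of Wnt7b and Wnt4, followed by Porcn, Fzd6 (-0.44) and Wnt10a. Wnt7b differed by -0.79 ± 0.54 (SE, adjusted p = 0.541) and Wnt4 by -0.65 ± 0.50 (SE, adjusted p = 0.564, both limma), and Wnt10a by -0.39 ± 0.32. For these 3 ligands the difference is smaller than the SD among the controls on the same scale, which was 1.14 for Wnt7b, 0.99 for Wnt4 and 0.59 for Wnt10a. With the stratified marker mean as a covariate the differences turned to 0.16 for Wnt7b, 0.22 for Wnt4 and 0.14 for Wnt10a. Without Control 1, Control 4 and SiglecXII 2 they were -0.09, -0.11 and -0.07. Both fits were chosen after the split had been seen and rest on the samples highest in these 3 ligands. A change in these 3 differences was therefore built into both fits, and no conclusion is drawn from it. Other members gave narrower estimates, among them Ryk with -0.17 ± 0.12 (SE), Wls with -0.20 ± 0.15 and Fzd1 with -0.17 ± 0.15. Lgr4 differed by -0.04 ± 0.18, Fzd8 by -0.02 ± 0.18 and Wnt8b by 0.18 ± 0.16. Of these, Ryk, Wls, Fzd1, Lgr4 and Fzd8 turned positive after median centring.

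**Figure D3:**
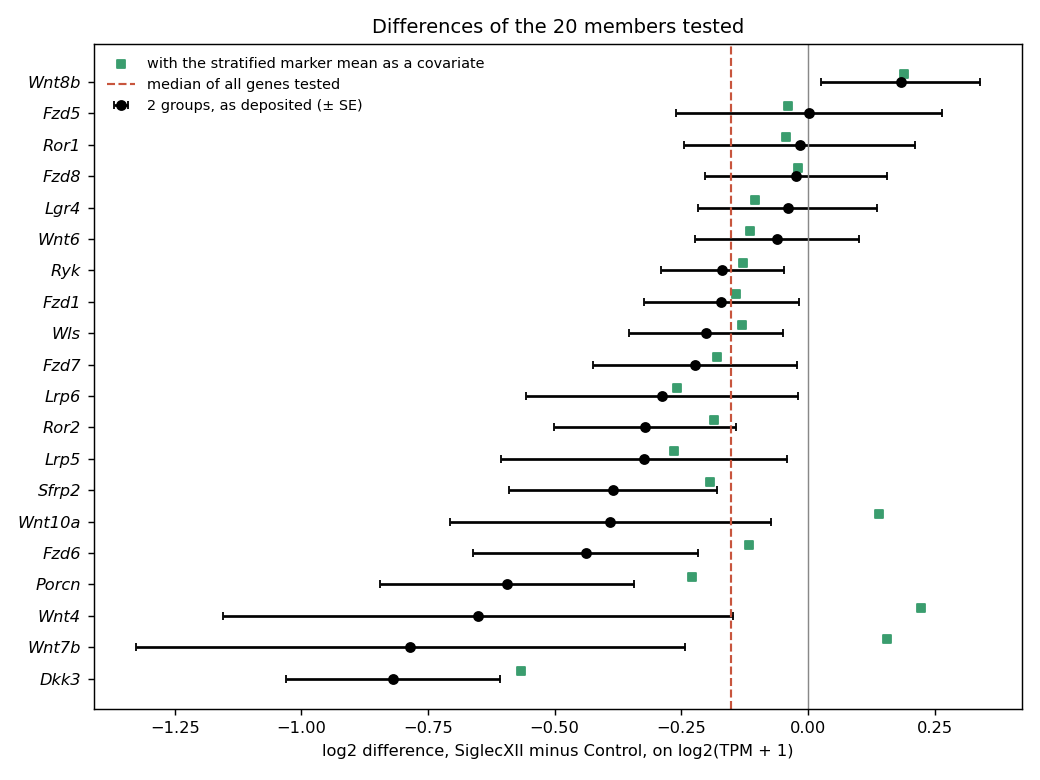
Log2 differences (SiglecXII minus Control, on log2(TPM + 1)) of the 20 members tested, with black points and bars for the estimate and its SE and green squares for the estimate with the stratified marker mean as a covariate. The dashed line is the median of all genes tested (-0.15), and the squares of Wnt4, Wnt7b and Wnt10a sit above 0.

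Outside the 52 members, the surface and intracellular genes of the pathway gave 1 of 12 and 2 of 41 genes tested at the unadjusted limit, all lower in SiglecXII, beside 7.67% of all genes. In the list of 22 other membrane and extracellular Wnt genes, 12 were tested and 1 was lower at an unadjusted P of 0.05, the R-spondin receptor Lgr5. In the list of 45 intracellular pathway genes, 41 were tested and 2 were lower, the scaffold Axin2 and the chromatin remodeller Chd8 (-0.58 ± 0.22, SE). The highest genes of the surface list in control colon were the proteoglycans Sdc1 (203.0 TPM) and Gpc4 (31.8 TPM) and the Frizzled-associated Tspan12 (29.0 TPM). The highest intracellular genes were the small GTPases Rac1 (435.9 TPM) and Rhoa (245.2 TPM) and β-catenin, Ctnnb1. Ctnnb1 was at 319.0 ± 30.3 TPM (SD, n = 4) in the controls and 250.8 ± 64.2 TPM (SD, n = 4) in SiglecXII. No gene of either list was higher at that limit on the deposited scale. After median centring 2 intracellular genes were higher, Tle4 by 0.32 and Mapk8 by 0.22, with unadjusted P of 0.0208 and 0.0248 in limma, beside 8.64% of all genes higher in that fit.

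Of 22 β-catenin targets of the intestine, among which the transporter Slc12a2 (52.9 TPM), Cdca7 (33.4 TPM) and Myc (25.6 TPM) had the highest control means, 15 were tested, all 15 had a lower mean in SiglecXII and 8 were lower at an unadjusted P of 0.05: Ascl2, Myc, Lgr5, Ephb3, Cdca7, Cd44, Axin2 and Ccnd1. Over all genes tested, 78.1% had a lower mean and 7.67% were lower at that P. The target list was chosen with earlier results of these data known. No excess over the shares of all genes is therefore read from it, here or below. None of the 15 targets passed after adjustment (adjusted p = 0.515 for each of the 8, limma). Ascl2, a transcription factor of crypt stem cells, was at 15.8, 14.3, 9.08 and 9.45 TPM in the controls and at 7.82, 4.91, 5.05 and 4.73 TPM in the SiglecXII samples. Myc, which drives growth and division, was at 31.5, 28.5, 18.1 and 24.4 TPM in the controls and at 15.7, 16.1, 10.3 and 8.49 TPM in the SiglecXII samples. Lgr5, the stem cell receptor for R-spondin, was at 1.44, 1.66, 1.92 and 1.92 TPM in the controls and at 1.28, 1.05, 0.970 and 0.629 TPM in the SiglecXII samples. In these 3 of the 15 genes no SiglecXII sample reached the lowest control, which is the case for 4.06% of all genes. Axin2, a feedback inhibitor, was at 12.7, 17.2, 14.2 and 14.0 TPM in the controls and at 14.4, 9.90, 6.68 and 4.66 TPM in the SiglecXII samples, so that SiglecXII 1 lay within the controls.

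The differences of Ascl2 and Myc were both -0.98, with SEs of 0.22 and 0.24 and unadjusted P of 0.00154 and 0.00242, in limma. That of Lgr5 was -0.47 ± 0.15 with an unadjusted P of 0.01. The median difference of the 15 targets was -0.47 against -0.15 for all genes, and -0.26 against 0.06 after median centring. In the centred fit Myc, Ascl2, Axin2, Ephb3 and Cdca7 passed the unadjusted limit, all lower, beside 2.16% of all genes lower. Cd44, a cell adhesion receptor, differed by -0.86 ± 0.33 (SE), Axin2 by -0.74 ± 0.28, the crypt guidance receptor Ephb3 by -0.69 ± 0.24, the cyclin gene Ccnd1 by -0.67 ± 0.27 and Cdca7, a cell division gene, by -0.60 ± 0.21. With 1 sample left out the count of 8 became 3 without SiglecXII 3 (Ascl2, Myc and Lgr5), 5 without SiglecXII 4, Control 1 or Control 2, and 7 or 8 otherwise. SiglecXII 3 and 4 were the lowest samples in 13 of the 15 and in 41.6% of all genes. Without these samples Ascl2 and Myc passed (2 of 15), beside 207 of the 13164 genes lower in that fit. With the stratified marker mean as a covariate 3 passed (Ascl2, Myc and Lgr5), against 1.43% of all genes lower in that fit.

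**Figure D4:**
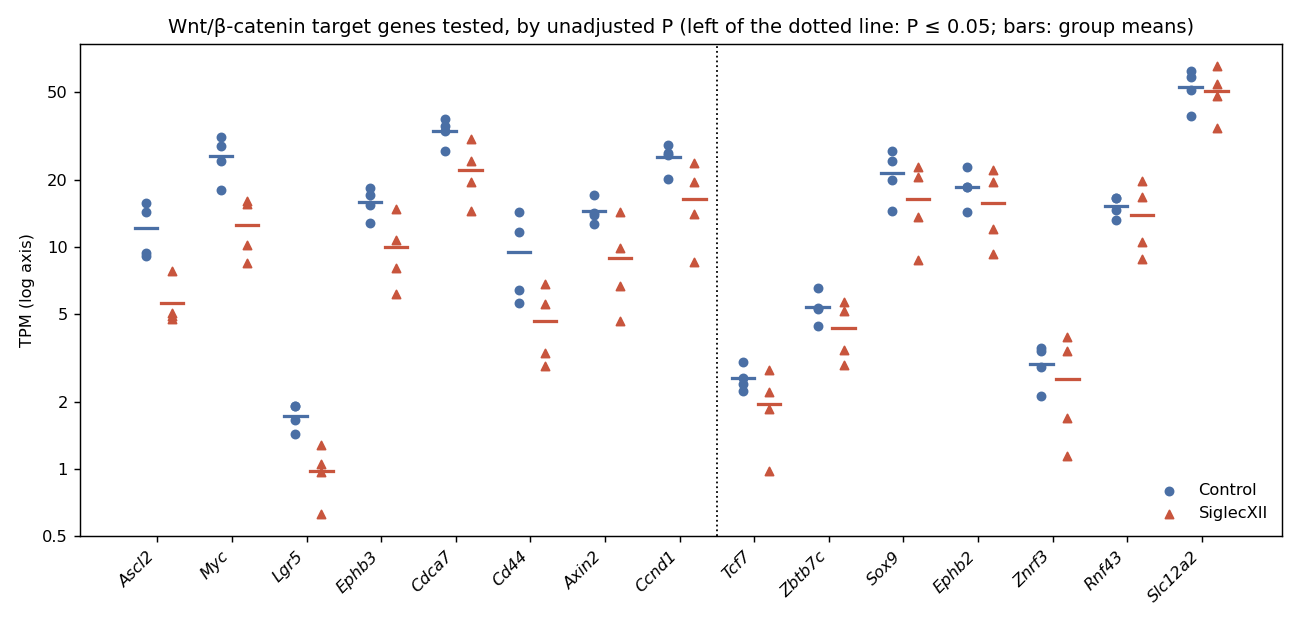
TPM (log axis) of the 15 target genes tested, ordered by unadjusted P, in the 4 Control samples (circles) and the 4 SiglecXII samples (triangles), with bars at the group means and a dotted line after the 8 genes at P of at most 0.05. Ascl2, Myc and Lgr5 are the genes in which all SiglecXII samples lie below all controls.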

How the data were processed

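RNA-seq of 4 Control and 4 SiglecXII colon samples was used. The authors deposited log2(TPM + 1) per gene with no adjustment between samples. The submitters' processing notes name kallisto 0.45.0 and GRCm38, and 98.3% of the gene identifiers, including those of all 52 members, are in GENCODE M21. The methods name a human reference for the mapping, while the identifiers are those of mouse. The labels name a stranded total RNA kit and the methods an mRNA kit. Whether strand was used in the quantification is not given in the sources used here. Members whose exons overlap those of a gene on the opposite strand (Wnt7b, Fzd5, Fzd6, Sfrp2, Wnt5a, Rspo3 and Wnt11) may therefore share reads with it. TPM keeps no read number, so sequencing depth is unknown here, and precision rests on the number of samples. Each TPM is relative to the other transcripts of its sample.

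From the deposited log2 values, the 13164 genes reaching 1 TPM in 4 or more samples were fitted in R 4.3.3 with 2 groups and no covariate, using limma 3.58.1 (trend moderated variance) with Benjamini-Hochberg adjustment over all of them. The fit was tested on simulated data. The count model of the methods does not suit TPM. For a repeated symbol the identifier with the highest mean was used. Members with a mean of at least 1 TPM in Control were called expressed. Each expressed member was given with its level, and members high in their role, past an unadjusted P of 0.05 or with groups that do not overlap were given by sample. Pathway genes were named when past that P or among the highest of their list. Some pathway and marker genes were named for their role only. Means are of TPM and differences of log2(TPM + 1), which understates the change of low genes. The members, gene lists and alternatives were chosen with earlier results of these data known, and the stratified marker list, its use as a covariate and the fit without 3 samples after the member values had been seen. Further alternatives were a stricter filter (5 TPM) and no filter, 0.1 as the pseudocount, centring on the median gene, quantile normalization, array weights, the sample number as a block and each sample left out. Shared sequence was counted in windows of 31 bases over GENCODE M21 transcripts. Promoters are those of RefSeq on GRCm38.p6, listed for 35 of the 52 members. Python 3.11.15 and matplotlib 3.10.9 were used for counts and figures.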

Additional observations from a re-analysis of the deposited data

Results flagged for a closer look

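In 5 of 62 groups of 4 samples looked at (the 22 expressed members and the pathway and target genes past the unadjusted limit, each in both conditions), 1 sample lay far from the other 3, judged by the gap to its nearest neighbour as a share of the whole range (Dixon's test). Chance alone gives about 1 in 20 groups, or 3.1 of 62. In 4 of the 5 the sample was Control 1 and lay lowest: for Wls the gap was 0.882 of the range, for Fzd5 0.923, for Fzd1 0.897 and for Fzd8 0.862. Control 1 was at 11.3 TPM for Fzd5 against 23.0 to 24.4 in the other controls. Control 1 was also the control with the highest stratified epithelial markers (a summed 25650 TPM) and the lowest summed epithelial markers of colon (11340 TPM against 12710 to 15840), and the part of these in the 4 receptors and secretion genes was not tested. The fifth was the target gene Ascl2, for which SiglecXII 1 lay highest in its group (7.82 TPM, a gap of 0.874 of the range) and still below the lowest control (9.08 TPM).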

How the results depend on the processing

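No member and no target gene passed an adjusted p of 0.05 under any alternative. Over all genes 5 passed in the reported fit, 3 with a filter at a TPM of 5, 3 with no filter, 18 with array weights (12 higher, 6 lower), 2 without SiglecXII 3 and 4, 3 with the stratified marker covariate and 2 to 6 with 1 sample left out. At the unadjusted limit 1167 genes passed, 157 higher and 1010 lower. This count was 699 with a filter at a TPM of 5, 2043 with no filter, 1851 with array weights, 362 without SiglecXII 3 and 4, 259 with the covariate, 777 without the 3 samples high in stratified markers and 483 (without SiglecXII 3) to 2365 (without SiglecXII 1) with 1 sample left out. Median centring turned the split to 1137 higher and 285 lower, and quantile normalization to 704 higher and 408 lower. Of the members 2 passed the unadjusted limit. This count was 0 with a filter at a TPM of 5, which removes Dkk3 and Porcn, and 5 with no filter, which adds low genes (Fzd2, Rspo3, Fzd9 and Wnt2b beside Dkk3). All 5 were lower, as were 1677 of the 2043 genes that passed in that fit, with 366 higher. The share of all genes fitted without the filter was not taken, so the 5 are not read as an excess. The count of members was 1 (Dkk3) without SiglecXII 3 and 4, with the covariate and without the 3 samples, and 1 to 4 with 1 sample left out, the highest without Control 3. The 1 tested member without overlap became 0 at a TPM of 5 and after median centring. The pathway and target genes past the unadjusted limit were 9, and 2 without SiglecXII 3 and 4, 3 with the covariate and 3 (without SiglecXII 3) to 25 (without SiglecXII 1) with 1 sample left out. The target genes were 8, and 5 after median centring, 2 without SiglecXII 3 and 4, 3 with the covariate, 3 without the 3 samples and 3 to 8 with 1 sample left out. Ascl2, Myc and Dkk3 passed the unadjusted limit in every setting in which they were tested. As the settings refit the same samples, this is not independent support, and the share of all genes that did so was not taken.

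The differences of 25 named genes had the sign of the reported fit and its side of the adjusted limit in 406 of 441 comparisons and the other sign in 35, and the cause was not tested. After median centring the difference was 0.17 for Lgr4, 0.0113 for Wls, 0.0439 for Ryk, 0.0411 for Fzd1 and 0.20 for Ror1. After quantile normalization it was 0.0534 for Lgr4, 0.0408 for Fzd1, 0.014 for Fzd7 and 0.18 for Ror1. Array weights gave 0.175 for Wnt4 and 0.12 for Ror1. Without SiglecXII 3 and 4 it was 0.13 for Lgr4, 0.06 for Wls, 0.13 for Lrp5, 0.14 for Lrp6, 0.0106 for Fzd1, 0.10 for Fzd7 and 0.27 for Ror1. With the covariate it was 0.22 for Wnt4, 0.16 for Wnt7b and -0.0397 for Fzd5. Without the 3 samples high in stratified markers it was -0.34 for Fzd5 and -0.00475 for Wnt8b. With 1 sample left out it lay between -0.21 and 0.0374 for Lgr4, -0.25 and 0.13 for Fzd5 and -0.19 and 0.10 for Ror1. The labels do not say that samples with the same number in the 2 groups are pairs. Correlations of same-numbered samples, as deviations from their group means, were -0.16, -0.20, 0.10 and -0.0025. With 4 samples per group these values cannot show whether any samples were paired. With the number as a replicate block 4 genes passed the adjusted limit, 945 the unadjusted limit, 2 members and 8 targets the unadjusted limit and 10 pathway and target genes. Without read numbers, counting error of low members could not be separated from the spread between samples.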
